A study of Mus musculus with 12 samples.

Results

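The T cell receptor complex and its first signalling steps were followed as 9 genes: *Cd3d*, *Cd3e*, *Cd3g*, *Cd247*, *Cd4*, *Lck*, *Zap70*, *Lat* and *Ptprc*. They were listed by name, with earlier results of these data known. The 9 genes were among the 17523 in the table, and each of the 9 passed the filter on low values that left 15587 genes for testing. The 12 RNA-seq libraries were made from splenic CD4+ T cells sorted into 4 populations, with 3 libraries each: YFP- naïve, YFP+ naïve, YFP- effector/memory (TEM) and YFP+ TEM cells. Naïve and TEM cells were told apart in the sort by surface markers, among them CD44, which is low on naïve and high on TEM cells.

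All 4 groups came from *Gr/fr* mice of strain C57BL/6, 2 to 3 months old and neither immunised nor treated. In these mice the *Csf2* gene, which encodes GM-CSF, also drives Cre recombinase (iCre) and BFP, and Cre removes a stop cassette before eYFP in Rosa26. YFP therefore marks cells that make GM-CSF or once made it, and does not say which. Spleens of 3 mice were sorted and the libraries of a group carry the numbers 1 to 3, but whether each library is 1 mouse was not given in the sources used here. P-values therefore measure the spread between these libraries only.

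The receptor on a CD4+ T cell recognises peptide on MHC class II through its variable chains, which have almost no signalling tail of their own. The signal passes through the CD3 chains and the zeta chain, whose tails carry tyrosine motifs (ITAMs). Lck, brought to the receptor by CD4, phosphorylates these motifs, ZAP-70 binds them and phosphorylates LAT, and LAT gathers the enzymes that open the calcium, Ras and protein kinase C branches. CD45, the product of *Ptprc*, keeps Lck active by removing its inhibitory phosphate.

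The values are normalized counts, that is, reads on a gene divided by the size factor of the library. A library held between 40974124 and 57822269 reads on genes. The labelled states were present in the RNA. *Cd44* (TEM against naïve, log2 difference 2.97 in YFP- and 3.21 in YFP+ cells) and *S100a4* were higher in TEM cells, and *Ccr7*, a homing receptor gene of naïve cells (-2.42 and -2.61), was lower, and each of the 3 passed the test in both. Transcripts used as markers of other cells were also found and differed between the groups. The summed normalized counts of 9 plasmacytoid dendritic cell markers were 15918 to 24198 in YFP- TEM libraries and 10073 to 11220 in the YFP+ TEM group, against 8589 to 9525 in the YFP- and 9139 to 9453 in the YFP+ naïve group. For 9 markers of conventional dendritic cells and macrophages the sums were 18242 to 32266, 4222 to 6931, 2002 to 2112 and 2182 to 4885 in the same order. For 6 NK cell markers they were 3974 to 6378, 1624 to 2625, 273 to 334 and 296 to 724, and for 7 B cell markers 2289 to 3334, 1467 to 2015, 553 to 1469 and 741 to 2121. Single markers weighed unequally in these sums. In the plasmacytoid sum, *Pacsin1* (6099 ± 588) and *Bst2* (2158 ± 80.2) made up most of the YFP- naïve level and had 5142 ± 519 and 2993 ± 445 in YFP- TEM libraries (mean ± SD, n = 3). In the NK sum of YFP- TEM libraries most came from *Tyrobp* (2818 ± 899) and *Fcer1g* (1519 ± 427), which myeloid cells also transcribe and which were lower in YFP+ TEM libraries (222 ± 92.4 and 235 ± 90.5). The NK receptor gene *Klrb1c* ran the other way, with 154 ± 5.69 in YFP- and 1304 ± 394 in YFP+ TEM libraries. Only *Klk1* (YFP- naïve) and *Ncr1* (YFP- naïve and YFP- TEM) of these markers were at 0 in every library of a group. In bulk RNA, fewer cells of a type and less RNA per cell cannot be told apart.

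On GRCm38.p6, 3 of the receptor chain genes lie beside each other on chromosome 9: *Cd3g* (chr9:44969572-44980431, minus strand), *Cd3d* (chr9:44981769-44987052, plus strand) and *Cd3e* (chr9:44998735-45009663, minus strand). *Cd3g* and *Cd3d* are read away from each other from RefSeq starts 1355 bp apart. The start of *Cd3e* lies 27825 bp beyond that of *Cd3d*. These are the starts used for the promoters printed below, which for *Cd3d* and *Cd3e* lie within the gene spans just given. The promoters of these 3 genes are shown because the genes are neighbours. Their values moved together from library to library within a group, as described below. This was not particular to neighbours, since *Cd247* and *Cd4*, on other chromosomes, also moved with *Cd3e* (Pearson r = 0.922 and 0.921 after group means were removed). Each stretch runs from 250 bases before the start to 50 after it (RefSeq, GRCm38.p6, 5′ to 3′ on the strand of the gene). The capitals mark matches to 3 of the 7 motifs searched on both strands: AGGAAG, which ETS family factors can bind, the GC box GGGCGG, and the E-box CAGCTG.
*Cd3g* promoter, chr9:44980382-44980681, minus strand: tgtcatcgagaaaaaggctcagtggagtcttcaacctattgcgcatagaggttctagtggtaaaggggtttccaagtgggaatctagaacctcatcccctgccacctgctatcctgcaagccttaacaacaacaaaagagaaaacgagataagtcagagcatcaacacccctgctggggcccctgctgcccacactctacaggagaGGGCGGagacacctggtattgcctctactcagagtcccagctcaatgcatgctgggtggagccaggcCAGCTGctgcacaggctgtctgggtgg
*Cd3d* promoter, chr9:44981536-44981835, plus strand: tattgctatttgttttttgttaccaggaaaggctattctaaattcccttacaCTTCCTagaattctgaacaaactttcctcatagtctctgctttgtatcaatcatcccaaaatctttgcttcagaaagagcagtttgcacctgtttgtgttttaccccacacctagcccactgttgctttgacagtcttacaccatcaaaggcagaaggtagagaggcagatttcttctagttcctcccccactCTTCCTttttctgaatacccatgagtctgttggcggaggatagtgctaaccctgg
*Cd3e* promoter, chr9:45009562-45009861, minus strand: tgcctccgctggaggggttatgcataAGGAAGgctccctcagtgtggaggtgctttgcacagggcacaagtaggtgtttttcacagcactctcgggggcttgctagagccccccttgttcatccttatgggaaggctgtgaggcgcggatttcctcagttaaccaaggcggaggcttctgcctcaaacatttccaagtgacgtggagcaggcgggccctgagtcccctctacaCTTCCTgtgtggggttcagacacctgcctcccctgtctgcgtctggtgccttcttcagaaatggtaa
AGGAAG was found at 2 places each in the *Cd3d* and *Cd3e* stretches and not in that of *Cd3g*, and 35.4% of the 32851 promoters in the table hold it. The *Cd3g* stretch held GGGCGG, present in 35.7% of all promoters, and CAGCTG, present in 16.3%. TATAAA (13.6% of all), CACGTG (7.15%), TGTGGT (16.8%) and TGACGTCA (1.79%) were not in these 3 stretches. The *Cd3d* stretch had 42.3% GC and 1 CpG, against 54.0% and 4 in *Cd3g* and 56.7% and 8 in *Cd3e* (all promoters, median 52.7% and 7).

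The other members lie on 4 further chromosomes: *Cd247* (chr1:165779952-165871153), *Zap70* (chr1:36761798-36782821), *Ptprc* (chr1:138062859-138175756), *Cd4* (chr6:124864693-124888247), *Lck* (chr4:129548344-129573641) and *Lat* (chr7:126363827-126369705). Of the annotated genes that overlap a member, only *Pou2f1*, at the end of *Cd247*, is in the table, with 2174 to 3550 normalized counts per library. Whether the counting used the strand is not given in the sources used here.

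Levels of different genes were compared as normalized counts per kb of exon, with the exons of all transcripts of a gene merged. That length is a choice, and a gene whose annotated transcripts include long, rarely used exons is placed too low by it. By their mean over the 12 libraries the 9 genes stood between the 96.7th and the 99.4th percentile of 14997 genes with a length. In YFP- naïve cells *Lck* led with 17233 ± 2033 per kb (mean ± SD, n = 3), followed by *Lat* (10680.4 ± 779) and *Cd4* (10394 ± 1116). *Cd3e* (8866 ± 923), *Cd3d*, *Ptprc*, *Cd3g* and *Zap70* (5029 ± 291) came next, and *Cd247*, the zeta chain, was lowest (3834 ± 277). Neighbours in this order did not overlap between *Lck* and *Lat*, *Cd3d* and *Ptprc*, and *Zap70* and *Cd247*, and every other pair of neighbours overlapped. YFP+ naïve cells had nearly the same order, with *Cd4* (10481 ± 1664) and *Lat* (10007 ± 441) exchanged within their spread.

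In TEM cells *Cd4* and *Lck* led together. *Cd4* had 15604 ± 1001 per kb in YFP- and 14919 ± 1625 in YFP+ TEM cells, *Lck* 13999 ± 909 and 15481 ± 105, and their ranges overlapped in both groups. *Cd3e*, *Zap70*, *Lat*, *Cd3g*, *Cd3d* and *Ptprc* followed in that order in both, each overlapping the next, and *Cd247* was again lowest, below *Ptprc* without overlap. *Zap70* thus had rank 8 of the 9 in naïve and rank 4 in TEM cells.

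The comparison of TEM with naïve cells asked how the receptor machinery differs between cells sorted by these surface phenotypes, within each YFP fraction. Contact with antigen was not measured. The coreceptor gene *Cd4* and the kinase gene *Zap70* were higher in TEM cells of both fractions, and the adaptor gene *Lat* was lower in both. In YFP- cells 4 of the 9 genes were called at an adjusted p of 0.05 or less (2 higher, 2 lower), where 49.8% of all genes tested were called (29.9% higher, 19.9% lower), and in YFP+ cells 3 of 9 (2 higher, 1 lower), where 41.4% were (24.7% higher, 16.7% lower). Both shares lie near or below these backgrounds, so the number of members called is not a result about the 9 genes. Their median log2 difference was -0.14 in YFP- and -0.08 in YFP+ cells, against 0.05 and 0.03 over all genes tested. The largest difference of a member was below 1 on the log2 scale in both comparisons.

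*Cd4* encodes the coreceptor that binds MHC class II and carries Lck, and the cells had been sorted for its protein. YFP- naïve libraries 1, 2 and 3 had 46335, 37341 and 42047 normalized counts of *Cd4*, and YFP+ naïve libraries 49391, 36078 and 41308. YFP- TEM libraries had 61493, 67471 and 59783, and YFP+ TEM libraries 59179, 67141 and 54143. Every TEM library lay above every naïve library. The means were 1.50 times higher in YFP- and 1.42 times higher in YFP+ TEM cells, with log2 differences of 0.59 (SE 0.14, adjusted p = 0.00387) and 0.52 (SE 0.14, adjusted p = 0.0107) in limma on log2(normalized count + 1).

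*Zap70* encodes the kinase that docks on phosphorylated ITAMs. Its values were 15077, 14161 and 15901 in YFP- naïve and 15386, 13832 and 15511 in YFP+ naïve libraries. They were 21701, 28451 and 19601 in YFP- TEM and 24177, 34548 and 23492 in YFP+ TEM libraries. The naïve libraries sat close together below every TEM library, and replicate 2 was the highest of the 3 in both TEM groups. *Zap70* rose 1.55-fold in YFP- cells, a log2 difference of 0.61 (SE 0.16, adjusted p = 0.00645), and 1.84-fold in YFP+ cells, a log2 difference of 0.86 (SE 0.16, adjusted p = 8.73e-04). The calls for *Cd4* and *Zap70* held under every alternative scaling, filter and left-out library tried.

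*Lat* encodes the membrane adaptor that ZAP-70 phosphorylates. It had 27431, 29485 and 31743 normalized counts in YFP- naïve and 27189, 26802 and 29081 in YFP+ naïve libraries. It had 17839, 18112 and 19236 in YFP- TEM and 21523, 19123 and 23534 in YFP+ TEM libraries. All 6 TEM libraries lay below all 6 naïve libraries. TEM cells had 0.622 of the naïve mean in YFP- cells (log2 difference -0.68 (SE 0.10, adjusted p = 8.59e-05)) and 0.773 of it in YFP+ cells (log2 difference -0.38 (SE 0.10, adjusted p = 0.00799)). *Lat* was lower under every scaling, but its call was lost in YFP- cells when libraries were scaled to the receptor constant genes *Trac*, *Trbc1* and *Trbc2* (adjusted p = 0.0571), and in YFP+ cells under that scaling, quantile normalization and scaling to total reads (adjusted p up to 0.178).

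**Figure D1:**
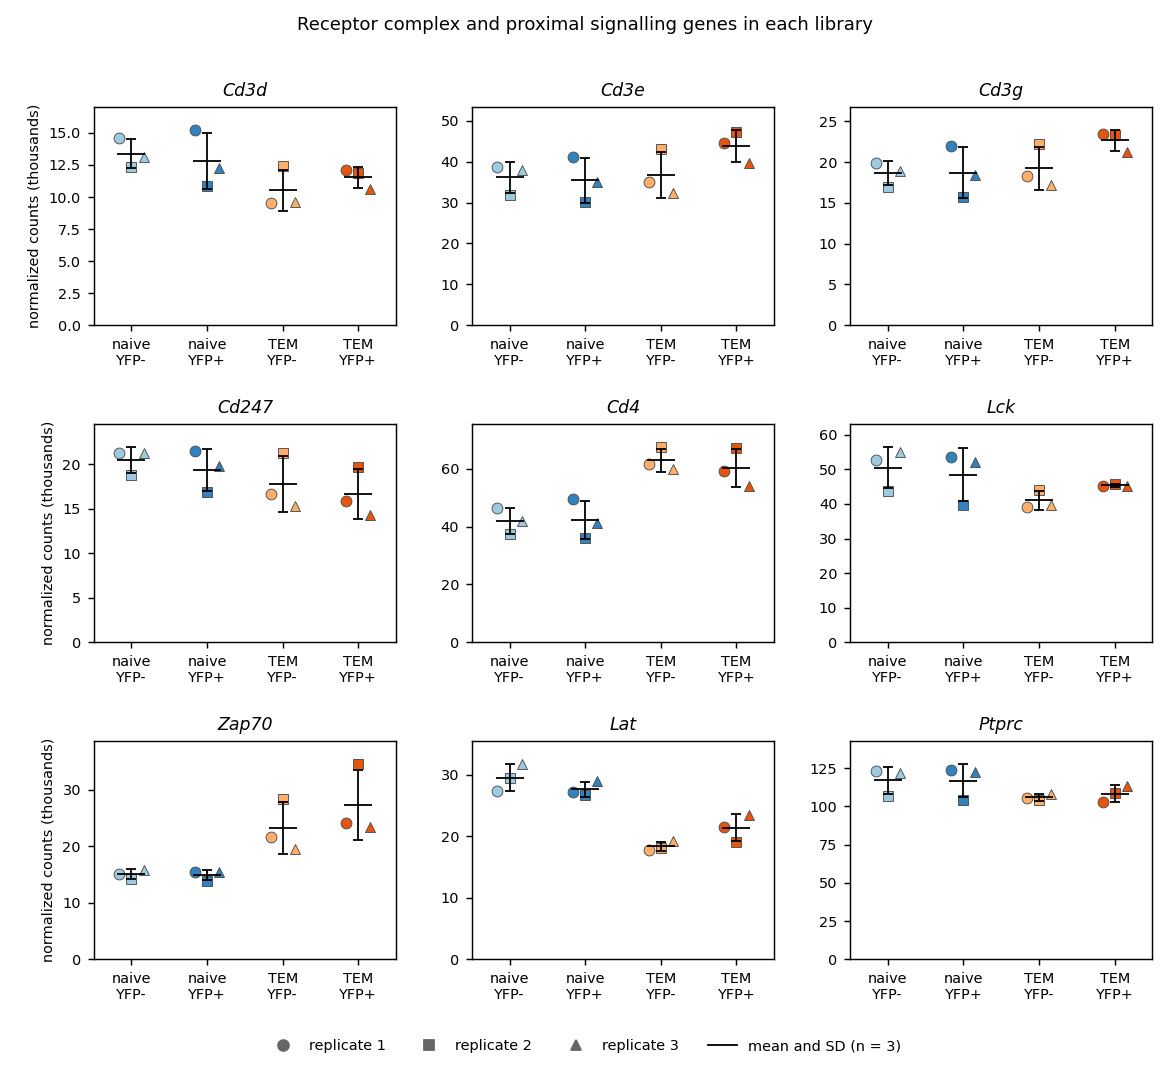
Normalized counts (linear axes from 0, scaled as their labels say) of the 9 genes in the 12 libraries, with 3 libraries per group, symbols for the replicate number, and bars for mean and SD. *Cd4* and *Zap70* are higher and *Lat* is lower in all TEM than in all naïve libraries, while the groups overlap for the CD3 chains, *Cd247* and *Ptprc*.

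Within a library, the ratio of *Zap70* to *Lat* normalized counts per kb of exon followed from these opposite differences. It was 0.508, 0.444 and 0.463 in YFP- naïve, 0.523, 0.477 and 0.493 in YFP+ naïve, 1.13, 1.45 and 0.942 in YFP- TEM and 1.04, 1.67 and 0.923 in YFP+ TEM libraries. Naïve and TEM libraries did not overlap, and this ratio needs no scaling between libraries. How often ratios of other gene pairs had no overlap was not counted. An exact permutation test of 3 against 3 libraries cannot give a p below 0.1.

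*Lck* encodes the Src family kinase that phosphorylates the ITAMs. It had 52833, 43703 and 54889 in YFP- naïve, 53623, 39643 and 52134 in YFP+ naïve, 39133, 44052 and 39819 in YFP- TEM and 45100.3, 45691 and 45241 in YFP+ TEM libraries. The naïve and TEM groups overlapped through replicate 2 of both naïve groups, which was low. Its log2 difference between TEM and naïve cells was -0.29 (SE 0.13, adjusted p = 0.0881) in YFP- cells, and *Lck* was called lower there with the replicate number as a block (adjusted p = 0.0442), TMM factors, edgeR, DESeq2, DESeq2 with the block, or without YFP- naïve replicate 2 (adjusted p = 0.0197 to 0.0404). In YFP+ cells it was -0.08 (SE 0.13, adjusted p = 0.655). The sign turned positive in YFP- cells under quantile normalization (0.10) and the receptor constant scaling (0.050), and in YFP+ cells under quantile normalization *Lck* was called higher (0.29, adjusted p = 0.0321).

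*Ptprc*, which encodes the phosphatase CD45, had the highest normalized count of the 9 genes in each library, and it also has the longest merged exons (18313 bp). It ran from 104493 to 123860 in the naïve libraries and from 102717 to 113581 in the TEM libraries, and the ranges overlapped. The log2 differences of TEM from naïve cells were -0.14 (SE 0.14, adjusted p = 0.416) in YFP- and -0.11 (SE 0.14, adjusted p = 0.566) in YFP+ cells, with 95% intervals of -0.44 to 0.15 and -0.40 to 0.19. These data count all *Ptprc* transcripts together, so the CD45 isoforms that separate naïve and memory cells could not be compared.

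Among the receptor chains, *Cd3d* was lower in TEM than in naïve cells of the YFP- fraction. *Cd3d*, the delta chain, had 14604, 12364 and 13155 in YFP- naïve and 9539, 12394 and 9592 in YFP- TEM libraries, and replicate 2 of the TEM group reached above replicate 2 of the naïve group. Its log2 difference was -0.36 (SE 0.13, adjusted p = 0.0438). That call was lost with quantile normalization, total reads, the receptor constant scaling or no variance trend, and without replicate 1 or 3 of either group (adjusted p up to 0.930). In YFP+ cells, with 15222, 10889 and 12293 in naïve and 12119, 11859 and 10609 in TEM libraries, the difference was -0.14 (SE 0.13, adjusted p = 0.441).

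*Cd3e* and *Cd3g* encode the epsilon and gamma chains, which pair with each other in the receptor. *Cd3e* had 38784, 31859 and 37882 in YFP- naïve and 34906, 43014 and 32339 in YFP- TEM libraries, with a log2 difference of 0.02 (SE 0.15, adjusted p = 0.933). In YFP+ cells it had 41128, 30224 and 35035 in naïve and 44655, 47263 and 39632 in TEM libraries, with a difference of 0.31 (SE 0.15, adjusted p = 0.106). The groups overlapped in both fractions, in YFP+ cells through the high naïve replicate 1. *Cd3g* had 19898, 17007 and 18915, 21965, 15753 and 18418, 18329.9, 22213 and 17139 and 23446, 23351 and 21223 in YFP- naïve, YFP+ naïve, YFP- TEM and YFP+ TEM libraries, with differences of 0.04 (SE 0.13, adjusted p = 0.816) in YFP- and 0.29 (SE 0.13, adjusted p = 0.0979) in YFP+ cells. In YFP+ cells both *Cd3e* and *Cd3g* were called higher under quantile normalization, total reads, the receptor constant scaling, DESeq2 with the replicate block, or without YFP+ naïve replicate 1, with adjusted p from 0.00119 to 0.0466 for *Cd3e* and from 0.000944 to 0.0498 for *Cd3g*. Without that library 5 of 9 members were called. In YFP- cells *Cd3e* was called higher under quantile normalization (0.35, adjusted p = 0.0318) and the receptor constant scaling (0.36, adjusted p = 0.00314), and *Cd3g* under the latter (0.39, adjusted p = 0.000735).

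*Cd247* encodes the zeta chain, which holds most of the complex's ITAMs. It had 21294, 18729 and 21274 in YFP- naïve, 21426, 16831 and 19779.8 in YFP+ naïve, 16635, 21295 and 15287 in YFP- TEM and 15842, 19701 and 14326 in YFP+ TEM libraries. All groups overlapped. The differences of TEM from naïve cells were -0.22 (SE 0.15, adjusted p = 0.250) and -0.22 (SE 0.15, adjusted p = 0.251).

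**Figure D2:**
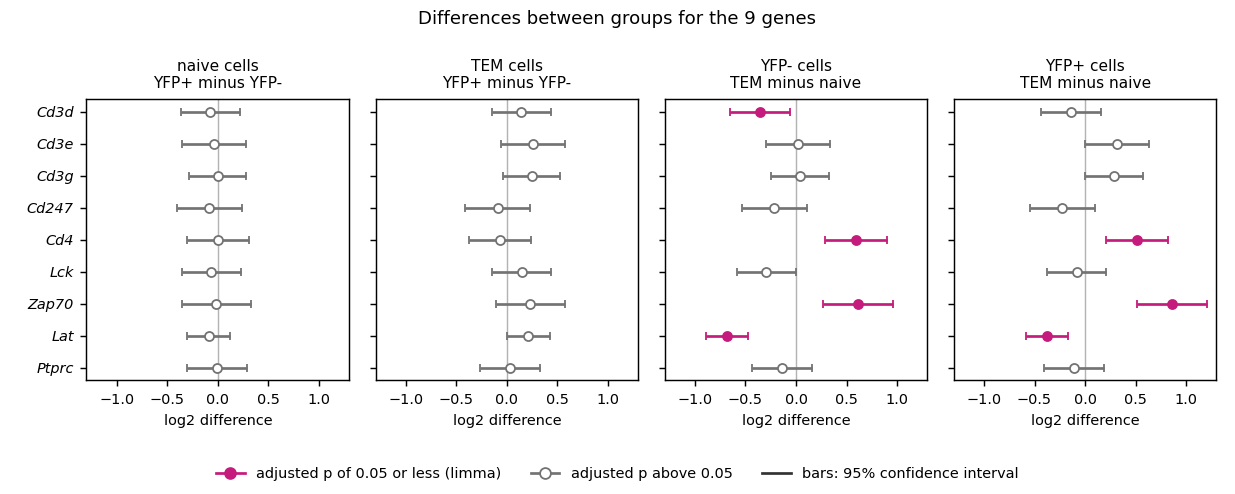
Log2 differences of the 9 genes with 95% confidence intervals from limma, in naïve and in TEM cells between YFP+ and YFP- (the left panels) and in YFP- and YFP+ cells between TEM and naïve (the right panels), with 3 libraries per group. Filled points had an adjusted p of 0.05 or less: *Cd3d*, *Cd4*, *Zap70* and *Lat* in YFP- cells, and *Cd4*, *Zap70* and *Lat* in YFP+ cells.

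Counting by ranges alone, 3 of the 9 genes (*Cd4*, *Zap70* and *Lat*) had no overlap between TEM and naïve libraries in each fraction, where 59.0% of all genes had none in YFP- and 48.7% in YFP+ cells. Markers of other cells moved with the YFP- comparison. In YFP- cells 8 of 9 plasmacytoid dendritic cell markers, 8 of 9 conventional dendritic cell and macrophage markers and 4 of 6 NK markers were higher in TEM than in naïve libraries, and of 7 B cell markers 2 were higher and 3 lower. In YFP+ cells 5 of 9, 4 of 9 and 5 of 6 were higher, with 1 lower in each of the dendritic cell lists, and 1 of 7 B cell markers was higher. Plasmacytoid dendritic cells also transcribe *Cd4*, and NK cells transcribe *Cd247*, *Zap70* and *Lat*. The cells had been sorted as CD4+, and *Ncr1* was at 0 in all YFP- TEM libraries. In YFP+ against YFP- TEM cells limma called *Ncr1* (log2 difference 4.62, adjusted p = 0.00391) and *Klrb1c* (3.03, adjusted p = 0.00365) higher. *Tyrobp* (-3.72) and *Fcer1g* (-2.74) were called lower there. Of the YFP- TEM libraries, replicate 2 had the lowest marker sums for plasmacytoid (15918) and conventional dendritic cells and macrophages (18242) and the highest *Cd4*, *Zap70*, *Lck* and CD3 chain counts. The part of these cells in the differences was not tested.

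The scaling of the libraries mattered in TEM against naïve cells. The median log2 difference of all genes moved from 0.05 to -0.20 with quantile normalization, 0.19 with total reads and 0.39 with the receptor constant scaling in YFP- cells, and from 0.03 to -0.14, 0.15 and 0.14 in YFP+ cells. The share of called genes that were higher moved with it, from 60.0% to 37.7%, 73.0% and 87.0% in YFP- and from 59.6% to 39.8%, 72.1% and 72.9% in YFP+ cells. Of the members, 3 were higher and 1 lower with quantile normalization, 2 and 1 with total reads and 4 and 0 with the receptor constant scaling in YFP- cells. In YFP+ cells the counts were 5 and 0, 4 and 0, and 4 and 0.

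Because ratios within a library need no scaling, the share of each chain was taken in the sum of the 4 signalling chains per kb. *Cd3d* made up 28.6% ± 0.928 of this sum in YFP- naïve and 28.1% ± 0.650 in YFP+ naïve libraries (SD, n = 3), and 24.1% ± 0.743 in YFP- TEM and 23.4% ± 0.764 in YFP+ TEM libraries. *Cd3e* held 34.4% ± 0.915 and 34.6% ± 0.122 in naïve and 37.5% ± 0.399 and 39.6% ± 0.390 in TEM libraries. *Cd3g* held 22.1% ± 0.165 and 22.8% ± 0.236, then 24.5% ± 0.378 and 25.6% ± 0.817. For each of these 3 chains all 6 naïve libraries lay on one side of all 6 TEM libraries, *Cd3d* above and *Cd3e* and *Cd3g* below. The shares of a library add to a fixed total, so they do not move independently. Within a fraction, counts of single genes had no overlap for 59.0% (YFP-) and 48.7% (YFP+) of all genes. How often shares within other gene sets had none was not counted.

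*Cd247* held 14.9% ± 0.383 in the YFP- and 14.5% ± 0.665 in the YFP+ naïve group, and 13.8% ± 0.368 in YFP- and 11.4% ± 1.15 in YFP+ TEM libraries. The YFP+ TEM libraries lay between 10.7 and 12.8%, below every YFP- TEM library (13.5 to 14.2%). In the same 2 groups *Cd3e* lay between 39.3 and 40.0% in YFP+ and between 37.2 and 38.0% in YFP- TEM libraries. Counts of single genes had no overlap between these groups for 25.0% of all genes, and shares within other gene sets were not counted. These are differences of 3 against 3 libraries, for which the exact permutation test cannot go below 0.1. A share says that chains changed unequally and not which of them changed.

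**Figure D3:**
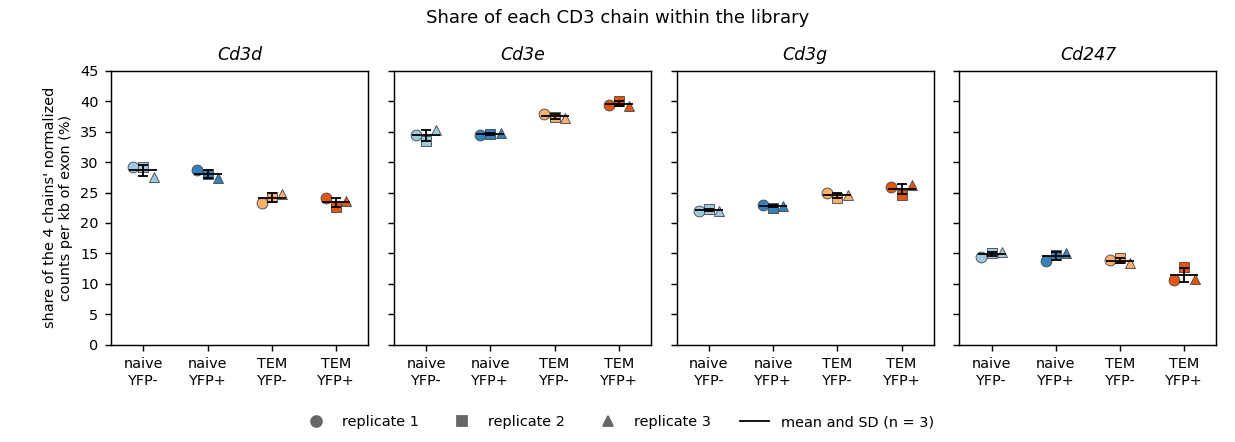
Share (%) of *Cd3d*, *Cd3e*, *Cd3g* and *Cd247* in the sum of the 4 genes' normalized counts per kb of exon in each library, with symbols for the replicate number and bars for mean and SD (n = 3). The *Cd3d* share falls from 27.4 to 29.2% in naïve to 22.6 to 24.8% in TEM libraries, and *Cd247* is lowest in YFP+ TEM libraries.

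The comparison of YFP+ with YFP- cells asked whether the machinery differs in cells with a history of GM-CSF. In naïve cells none of the 9 genes was called by limma, where 0.00642% of all genes were (1 of 15587). None reached an unadjusted p of 0.05 (3.32% of all genes did), and none was without overlap between the groups (5.38% of all genes were). edgeR and DESeq2, with or without the replicate block, also called 0. The log2 differences ran from -0.09 (*Lat*, 95% interval -0.30 to 0.12) to 0.01 (*Cd4*, -0.30 to 0.31). The widest interval, that of *Zap70*, ran from -0.36 to 0.33, so differences of that size were not shown to be absent.

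In TEM cells none of the 9 genes was called by limma either, where 6.97% of all genes were. Only *Lat* reached an unadjusted p of 0.05 (0.0486, which 17.1% of all genes reached). *Lat* was 1.16 times as high in YFP+ as in YFP- TEM cells, a log2 difference of 0.21 (SE 0.10, adjusted p = 0.288). YFP+ replicate 2, at 19123, lay below YFP- replicate 3, at 19236, so the groups overlapped. With the replicate block the adjusted p was 0.0585 in limma and 0.00530 in DESeq2, and DESeq2 and edgeR without the block called 0 of 9.

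*Lck* was the only member without overlap between the TEM groups (25.0% of all genes had none), with 45100.3 to 45691 normalized counts in YFP+ and 39133 to 44052 in YFP- libraries, and its log2 difference was 0.15 (SE 0.13, adjusted p = 0.713). The differences were 0.26 (SE 0.15, adjusted p = 0.430) for *Cd3e*, 0.25 (SE 0.13, adjusted p = 0.404) for *Cd3g* and 0.23 (SE 0.16, adjusted p = 0.562) for *Zap70*, and -0.09 for *Cd247* and -0.07 for *Cd4*, none of them past the test. Their 95% intervals were -0.06 to 0.58, -0.04 to 0.53, -0.11 to 0.58, -0.41 to 0.23 and -0.37 to 0.24 in the same order. In the same comparison 7 of 9 plasmacytoid and 6 of 9 conventional dendritic cell and macrophage markers were lower in YFP+ TEM cells, and of 6 NK markers 2 were higher and 2 lower.

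The difference of the YFP effect between TEM and naïve cells was called for none of the 9 genes by limma (3.55% of all genes). DESeq2 with the replicate block called 1238 of 14982 genes, and among the 9 members 1, *Lat* (adjusted p = 0.00787). In limma its difference was 0.31 on the log2 scale (95% interval 0.01 to 0.61, unadjusted p = 0.0462, adjusted p = 0.406), and 11.7% of all genes reached an unadjusted p of 0.05. The median over the 9 genes was 0.22, against -0.01 over all genes.

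To place the 9 genes, 49 other genes of the pathway were counted in 3 lists: 15 kinases and adaptors around LAT, 18 negative regulators of proximal signalling and 16 genes of the branches after LAT. In TEM against naïve cells 27 of the 49 were called in YFP- cells (14 higher, 13 lower) and 24 in YFP+ cells (13 higher, 11 lower), against the 49.8 and 41.4% of all genes given above. With quantile normalization, total reads and the receptor constant scaling the counts became 23 higher and 14 lower, 20 and 11, and 25 and 7 in YFP- cells, and 19 and 9, 17 and 7, and 17 and 6 in YFP+ cells. The calls of both fractions shared 19 genes, 10 higher and 9 lower in both, which is 70.4% of the YFP- and 79.2% of the YFP+ calls. The shared part was not counted over all genes, so it is not a result about the pathway.

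Around LAT, 2 genes were higher and 6 lower in YFP- TEM than naïve cells, and 3 were higher and 4 lower in YFP+ cells. *Lcp2*, which encodes the adaptor SLP-76 that joins LAT, rose with log2 differences of 0.85 and 0.84 (adjusted p = 3.60e-05 and 5.62e-05). *Sh2d1a*, which encodes the adaptor SAP, rose by 0.80 and 0.98. *Grap2*, which encodes GADS, the link between LAT and SLP-76, was lower by differences of -1.58 and -1.26. The kinase gene *Txk*, of the Tec family, was also lower (-2.99 and -1.19). The YFP- TEM libraries had 932, 847 and 951 normalized counts of *Txk*, and the YFP- naïve libraries 6520.2, 8882 and 6542.

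Among the negative regulators, 8 were higher and 3 lower in each fraction. *Sla*, which encodes the adaptor SLAP, rose by 1.22 in YFP- and 1.24 in YFP+ cells, and *Dok2*, an adaptor that recruits RasGAP, by 0.55 and 1.29. *Ubash3b*, which encodes a phosphatase that acts on ZAP-70, rose by 1.07 and 0.79. *Pag1*, which encodes the adaptor that brings Csk to the membrane (-1.08 and -0.81), and *Cblb*, a ubiquitin ligase (-0.56 and -0.29), were lower. *Ptpn6*, which encodes the phosphatase SHP-1, was lower in YFP+ cells (-0.34, adjusted p = 0.0468) and had a difference of 0.22 in YFP- cells that did not pass the test.

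In the branches after LAT, 4 genes were higher and 4 lower in YFP- cells, and 2 were higher and 4 lower in YFP+ cells. *Nfatc1*, a transcription factor of the calcium branch, rose by 1.33 and 1.30, and *Orai1*, the calcium channel, by 0.51 and 0.45. *Malt1*, of the NF-kB branch, rose in YFP- cells (0.70, adjusted p = 0.0351), a call lost with no variance trend and when any 1 of 5 of the 6 libraries was left out (adjusted p up to 0.129), and had a difference of 0.59 in YFP+ cells (adjusted p = 0.0814). *Dgka*, which encodes the kinase that consumes diacylglycerol, was lower (-1.32 and -1.23), as was *Prkcq*, protein kinase C theta (-0.85 and -0.58). *Rasgrp1*, which activates Ras, was lower in YFP- cells (-1.09), and its difference of -0.54 in YFP+ cells did not pass.

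**Figure D4:**
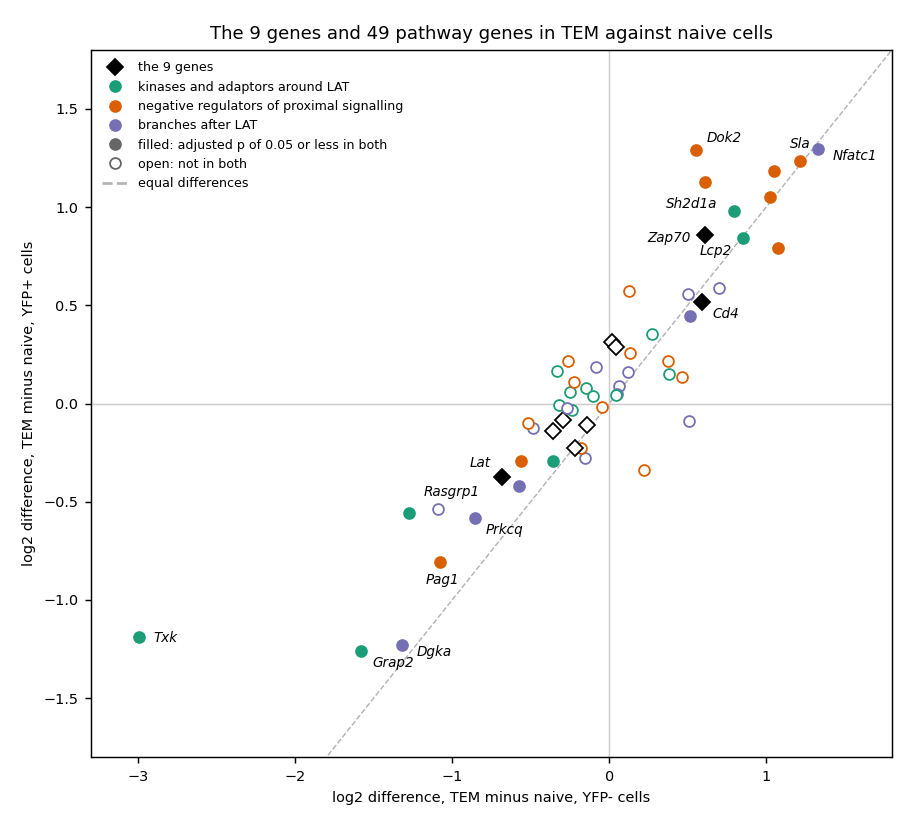
Log2 differences between TEM and naïve cells of the 9 genes (diamonds) and 49 pathway genes (circles, by list) in YFP- cells on the x axis and YFP+ cells on the y axis, with no error bars. Filled symbols had an adjusted p of 0.05 or less in both fractions, and *Txk* lies farthest from the dashed line of equal differences, at -2.99 in YFP- and -1.19 in YFP+ cells.

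Between YFP+ and YFP- TEM cells 6 of the 49 pathway genes were called higher and 0 lower, where 2.30% of all genes were called higher and 4.67% lower. With the replicate number as a block, which pairs these libraries, 20 of 49 were called (18 higher, 2 lower). Of all 15587 genes, 1869 were called with the block (814 higher, 1055 lower). With the receptor constant scaling, under which the median of all genes moved from -0.01 to -0.18 and the share of called genes that were higher from 33.0% to 18.7%, 3 were called higher and 1 lower. *Txk* had 932, 847 and 951 in YFP- and 3096, 2149.8 and 3646 in YFP+ TEM libraries, with a log2 difference of 1.67 (SE 0.18, adjusted p = 2.60e-04). The groups did not overlap, and both stayed below every naïve library.

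*Plcg1*, which encodes the phospholipase that opens the calcium branch, had 14046, 13133 and 13032 in YFP- and 16423, 16833 and 17207 in YFP+ TEM libraries, a log2 difference of 0.33 (SE 0.08, adjusted p = 0.0176). Among the negative regulators *Dok2* had 5168, 4659 and 4820.3 and 9325, 6637 and 8269.6, a log2 difference of 0.71 (SE 0.12, adjusted p = 0.00278), and *Ptpn2*, a phosphatase gene, rose by 0.35. In the branches, *Ppp3cc*, a calcineurin subunit gene, rose by 0.41. The calls of *Plcg1*, *Ptpn2* and *Ppp3cc* were lost with the receptor constant scaling (adjusted p over the alternatives up to 0.427, 0.563 and 0.316), and those of *Plcg1* and *Ptpn2* also without YFP- TEM replicate 2, among other libraries. In naïve cells none of the 49 genes was called by limma, 3 reached an unadjusted p of 0.05, edgeR called 0, DESeq2 1, and DESeq2 with the replicate block 3. Of all genes, DESeq2 called 14 of 11946, and 69 of 11960 with the block.

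**Figure D5:**
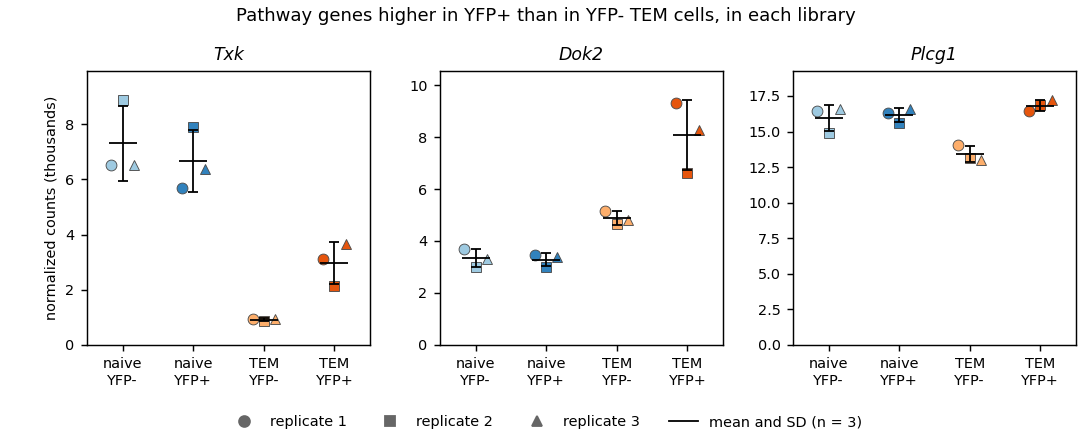
Normalized counts (linear axes from 0, scaled as their labels say) of *Txk*, *Dok2* and *Plcg1* in the 12 libraries, with symbols for the replicate number and bars for mean and SD (n = 3). YFP+ lie above YFP- TEM libraries for all 3 genes, with no overlap, while the YFP+ and YFP- naïve groups overlap.

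Among the constant genes of the receptor itself, *Trac* had differences between YFP+ and YFP- TEM cells of 0.17, *Trbc1* of 0.11 and *Trbc2* of 0.19, none past the test. *Trbc1* (-0.32) and *Trbc2* (-0.40) were lower in YFP- TEM than YFP- naïve cells, and neither was called in YFP+ cells. *Trgc1*, a gamma chain constant gene, had 98.4, 74.1 and 78.4 in YFP- and 1113, 632 and 1099.8 in YFP+ TEM libraries, a log2 difference of 3.45 (SE 0.55, adjusted p = 0.00196). The delta chain constant gene *Trdc* did not rise with it, with means of 273 in YFP- and 221 in YFP+ TEM libraries. *Trdc* was called lower in TEM than naïve cells of both fractions (-1.13, adjusted p = 3.52e-04, and -1.20, adjusted p = 2.99e-04). The CD8 chain genes were lower in YFP+ than in YFP- TEM cells, *Cd8a* by a difference of -3.13 (adjusted p = 0.00927) and *Cd8b1* by -1.63 (adjusted p = 0.00133). Mean *Cd8a* was 371 in YFP- TEM, 44.6 in YFP+ TEM, 61.4 in YFP- naïve and 44.0 in YFP+ naïve libraries. It was called higher in YFP- TEM than YFP- naïve cells (2.48, adjusted p = 0.00646), whereas *Cd8b1* was called lower in TEM than naïve cells of both fractions (-0.67 and -1.08). In naïve cells *Cd8b1* had 1282, 1083 and 1106 in YFP- and 587, 441 and 465 in YFP+ libraries, with no overlap. That difference of -1.22 (SE 0.24, adjusted p = 0.559) was not called by limma and was called by DESeq2 with and without the replicate block, and the YFP effect on *Cd8b1* was not shown to differ between TEM and naïve cells (adjusted p = 0.847). *Cd8a* had 470.0, 160.1 and 483 in YFP- TEM libraries, and its call between the TEM groups was lost without replicate 1 or 3 of that group.

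Within a group, the receptor chain genes and *Cd4* also varied together from library to library, and not all of the 9 genes did. After group means were removed, log2 values of *Cd3e* and *Cd3g* correlated with Pearson r = 0.977, *Cd3d* and *Cd3g* with 0.975, and *Cd247* and *Zap70* with 0.937 across the 12 libraries. *Cd4* followed the CD3 genes (r = 0.921 with *Cd3e*), whereas *Lat* ran against *Zap70* (-0.504) and *Cd4* (-0.484). *Lat* was also negative with each receptor chain, from -0.259 with *Cd3g* to -0.481 with *Cd247*, and had 0.149 with *Lck*. The values of *Ptprc* ran from 0.155 with *Zap70* to 0.838 with *Lck*. These are descriptions over 12 libraries in 4 groups of 3, which share size factors and base composition within a library. Over the group differences as well, *Cd3e* and *Cd3g* stayed together (0.984), while *Cd3d* did not follow *Cd3e* (0.399).

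Outside the 9 genes, those with the most similar log2 values over the 12 libraries, among 11078 whose normalized counts averaged 100 or more, were *Rtn3* for *Cd4* (r = 0.988), *Sp100* for *Lat* (0.987), *Stard10* for *Zap70* (0.986), *Arl15* for *Cd3g* (0.958) and for *Cd3e* (0.945), *Pgam5* for *Cd3d* (0.947) and *Lck* (0.945), *Rab6b* for *Ptprc* (0.927) and *Trbv16*, a receptor beta variable segment, for *Cd247* (0.902). After group means were removed the most similar genes to the members other than *Lck* were *Nab1* for *Cd4* (0.995), *Vamp5* for *Zap70* (0.988), *Dap* for *Cd3e* (0.983), *Cops6* for *Cd3d* (0.981), *Akr1b3* for *Cd3g* (0.977), *Cpsf3* for *Cd247* (0.975), *Flii* for *Ptprc* (0.963) and *D16Ertd472e* for *Lat* (0.954). The constant gene *Trbc2* was the next after *Akr1b3* for *Cd3g* (0.976). With so many genes compared over 12 libraries, high values arise readily, and they are given as descriptions.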

How the data were processed

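Total RNA of the 12 sorted libraries was sequenced with a stranded kit. The authors mapped reads to mm10 with DRAGEN, counted them on genes with Rsubread and deposited normalized counts, a signal equal to reads divided by the DESeq2 size factor. Annotation, strand setting and versions are not given in the sources used here. In the deposited signal 100% of values were whole reads after rescaling (tolerance 1e-06). The table has 0 unused columns. Entrez identifiers were matched to RefSeq GRCm38.p6 (16749 named, 774 not), and exon lengths to GENCODE M21.

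The 15587 genes that reached 5 normalized counts in 3 or more libraries were fitted as log2(value + 1) with limma 3.58.1 in R 4.3.3, using 1 mean per group, 12 libraries, 8 residual degrees of freedom, eBayes with a trend, and Benjamini-Hochberg adjustment over all genes. Genes were called at an adjusted p of 0.05 or less, and log2 differences are on the log2(value + 1) scale. Folds between groups are of mean normalized counts, and ratios and shares within a library are of normalized counts per kb of exon. The fit was tested on simulated data. Counting error is small beside the spread between replicates at these depths (a chi-square per degree of freedom of 36.5 to 80.3 between replicates).

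The 9 genes and all lists were chosen with earlier results of these data known. Beside the members, genes named were the 2 highest and 2 lowest called per list and comparison, the CD8 chains, genes that overlap a member, and the most similar genes by Pearson correlation. *Plcg1*, *Trac*, *Trbc1* and *Trbc2* were added after their values were seen. Replicate numbers paired the libraries in the YFP comparisons (correlation of deviations from group means 0.180 to 0.356 in TEM and 0.306 to 0.491 in naïve cells) and between YFP- naïve and TEM cells (0.137 to 0.232), but not between YFP+ naïve and TEM cells (-0.0199 to 0.204). Alternatives were other prior counts, filters and scalings, TMM factors, quantile normalization, total reads, no variance trend, a fit of only the libraries compared, the replicate block, a fold threshold, edgeR 4.0.16 and DESeq2 1.42.0 on the recovered reads, each library left out, and, chosen after seeing the data, scaling to *Trac*, *Trbc1* and *Trbc2*. Values of some single genes are not reported here.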

Additional observations from a re-analysis of the deposited data

Results flagged for a closer look

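For 3 genes near the 9 members, the effect of YFP differed between TEM and naïve cells by the interaction term in limma. *Txk* differed by 1.80 on the log2 scale (adjusted p = 0.00419), with YFP+ against YFP- differences of 1.67 in TEM and -0.13 in naïve cells. *Dok2* differed by 0.74 (adjusted p = 0.0320), from 0.71 and -0.03, and its call was lost under 11 alternatives. *Trgc1* differed by 3.89 (adjusted p = 0.0161), from 3.45 and -0.44. Its naïve libraries had at most 21.9 normalized counts, so the naïve difference rests on few reads. *Txk* and *Dok2* were among 3 of 49 pathway genes called, where 3.55% of all genes were. With the replicate block 10 of 49 were called, and 890 of all 15587 genes. In the same interaction 7 of 9 plasmacytoid and 6 of 9 conventional dendritic cell and macrophage markers had a negative difference that passed. The plasmacytoid marker *Ccr9* had a positive one (2.59, adjusted p = 0.0288). The part of these markers' cells in these values was not tested. None of the 9 members was called in this test by limma.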

How the results depend on the processing

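The calls of *Cd4* and *Zap70* in TEM against naïve cells kept their direction under every alternative run and their side of the threshold under each but a required log2 difference of 1, and the direction of *Lat* held there too. With the replicate block, which pairs the libraries in all comparisons but that of YFP+ TEM with YFP+ naïve cells, 20 of 49 pathway genes were called between the TEM groups and 10 in the difference of YFP effects. The block gave 1869 and 890 calls among all 15587 genes. It added *Lck* in YFP- TEM against naïve cells and changed no other member's call in limma. DESeq2 with the replicate block called 1 of 9 members and 21 of 49 pathway genes between the TEM groups, 3 of 49 between the naïve groups, 1 and 15 in the difference of YFP effects, and 5 members in YFP+ TEM against naïve cells. Its calls over all genes were 2411 of 15587, 69 of 11960, 1238 of 14982 and 7871 of 15587 in the same order. DESeq2 without the block called 12 pathway genes between the TEM groups, 1 between the naïve groups and 6 in the difference. There 1588 of 15549, 14 of 11946 and 844 of 15246 of all genes were called. Only the libraries compared gave 10 between the TEM groups, and the receptor constant scaling 1 between the naïve groups. Quantile normalization gave 5 members in YFP+ TEM against naïve cells and 5 pathway genes in the difference. Asking also for a log2 difference of at least 1 in size, 0 members were called in TEM against naïve cells of either fraction, and 11 (YFP-) and 9 (YFP+) pathway genes, 1 between the TEM groups and 1 in the difference. Leaving out 1 library gave 3 to 5 members in TEM against naïve cells of either fraction.

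Among the 9 members the differences whose sign turned were ones not called in the fit reported. With the receptor constant scaling the differences between the TEM groups became -0.022 for *Cd3d*, -0.018 for *Lck* and -0.13 for *Ptprc* (total reads -0.0039). Between the naïve groups they became 0.037 for *Cd3e*, 0.070 for *Cd3g*, 0.0076 for *Lck*, 0.059 for *Zap70* and 0.068 for *Ptprc*. *Cd3g* there was 0.0034 with edgeR, 0.0081 with DESeq2 and 0.0041 with DESeq2 and the block, *Cd4* -0.0010 with TMM factors and -0.0069 with total reads, and *Ptprc* 0.012 with quantile normalization. In YFP- TEM against naïve cells, *Cd3e* was -0.025 with TMM factors and -0.022 with edgeR, *Cd3g* -0.0013 with TMM factors, *Cd247* 0.13 and *Ptprc* 0.20 with the receptor constant scaling, *Lck* 0.10 with quantile normalization and 0.050 with the receptor constant scaling, and *Ptprc* 0.16 with quantile normalization. In YFP+ cells, quantile normalization, total reads and the receptor constant scaling gave 0.29, 0.035 and 0.025 for *Lck* and 0.16, 0.012 and 0.0012 for *Ptprc*. In the difference of YFP effects the receptor constant scaling gave -0.021 for *Cd3d*, -0.025 for *Lck* and -0.20 for *Ptprc*, quantile normalization -0.0021 for *Ptprc*, and TMM factors and edgeR 0.026 and 0.022 for *Cd247*. The cause of these turns was not tested.

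Leaving out 1 library turned signs between the naïve groups for *Cd247* (-0.16 to 0.013), *Cd3d* (-0.21 to 0.036), *Cd3e* (-0.15 to 0.075), *Cd3g* (-0.12 to 0.12), *Cd4* (-0.11 to 0.11), *Lck* (-0.16 to 0.074), *Ptprc* (-0.069 to 0.075) and *Zap70* (-0.056 to 0.040). It did so between the TEM groups for *Cd247* (-0.22 to 0.047), *Cd4* (-0.15 to 0.0047) and *Ptprc* (-0.0036 to 0.069), and in YFP- TEM against naïve cells for *Cd3e* (-0.10 to 0.10) and *Cd3g* (-0.067 to 0.12). In the difference of YFP effects it turned *Cd247* (-0.14 to 0.13), *Cd4* (-0.18 to 0.044) and *Ptprc* (-0.043 to 0.10).

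With 3 libraries per group and 9 abundant genes, the spread between replicates and not the read count limits the precision. Differences within the intervals given were not shown to be absent. The annotation, the strand setting and whether a library came from 1 mouse are not given in the sources used here, and whether other cell types contributed to the YFP- TEM libraries was not tested.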
